A study of Mus musculus with 12 samples.

Results

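The 10 genes described here encode inflammatory and regulatory cytokines: Il1a, Il1b, Il1rn, Il6, Il10, Il18, Tnf, Csf1, Csf2 and Il12b. They were taken as a group of related signals, and every probe set annotated to one of them and to no other gene was used, which gave 16 probe sets of 45037 and 10 genes of 18193. Il1rn had 3 probe sets, Csf1 had 4, Il12b had 2 and each other gene had 1. The cells were type II cells of the alveolar epithelium, which make the lung's surfactant. They came from mice and were kept in culture for 7 days on a collagen coat, in medium that held keratinocyte growth factor but not hydrocortisone. They received no further treatment. RNA was profiled on 12 Affymetrix arrays, 3 for each of 4 genotypes: cells lacking Gnaq and Gna11, cells lacking Gna12 and Gna13, cells lacking Gna12 alone and cells lacking Gna11 alone. The double knockouts are labelled Gnaq/Ga11 ko and Gna12/Ga13 ko in the sample titles, and their descriptions name Gnaq and Gna11, or Gna12 and Gna13. Each double knockout thus shares 1 deleted gene with the single knockout it was set against, and every group lacks Gna11 or Gna12. No wild-type cells were analysed here. The sources used here do not give how each gene was deleted, in which cells, or the age and strain of the mice. Nothing in the labels ties the samples of a genotype to separate animals or cultures, so p-values reflect the spread among these samples alone, and that spread may be technical.

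The deleted genes encode alpha subunits of heterotrimeric G proteins, which pass signals on from cell surface receptors, Gq and G11 to phospholipase C and calcium, and the G12 and G13 proteins to the small GTPase RhoA. Interleukin 1 alpha and beta are alarm signals that act through a common receptor, and the product of Il1rn occupies that receptor without activating it. Tumour necrosis factor, interleukin 6 and interleukin 18 are further inflammatory signals, and Il12b encodes a chain that interleukin 12 shares with a related cytokine. Csf1 and Csf2 encode growth factors of macrophages and of granulocytes and macrophages. In the lung the Csf2 product is made by type II cells and is needed for alveolar macrophages to mature. Interleukin 10 works the other way from most of these cytokines: it acts on macrophages and dendritic cells through STAT3 and lowers their inflammatory output.

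Il10 was the 1 gene among the 10 that passed the test between genotypes. It was high in cells lacking Gna12, with or without Gna13, and low in cells lacking Gna11, with or without Gnaq. Values are log2 expression per array. Il10 (probe set 1450330_at) read 7.29, 5.67 and 5.88 in the Gnaq/Gna11 arrays, replicates 1 to 3, and 8.10, 8.05 and 8.68 in the Gna12/Gna13 arrays. It read 9.17, 8.34 and 7.69 in the Gna12 arrays and 5.49, 4.74 and 5.55 in the Gna11 arrays. The 6 arrays lacking Gna12 ran from 7.69 to 9.17 with a median of 8.22, and the 6 lacking Gna11 from 4.74 to 7.29 with a median of 5.61, so these sets did not overlap. How many of all genes separated these sets was not counted, and the split was not particular to Il10. On the first principal component of all genes, with 27.7% of the variance, arrays lacking Gna11 lay from -37.2 to -17.9. Arrays lacking Gna12 lay from 20.4 to 37.4 on it. Replicate 1 of the Gnaq/Gna11 cells was the highest of the arrays lacking Gna11 and stood above the other Gnaq/Gna11 arrays. Group means were 6.28 ± 0.884 in Gnaq/Gna11, 8.28 ± 0.345 in Gna12/Gna13, 8.40 ± 0.743 in Gna12 and 5.26 ± 0.452 in Gna11 cells (SD, n = 3 each). The probe set was at or above the median of all probe sets, 5.08, on 11 of the 12 arrays, and Gna11 replicate 2 was the exception.

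Between the single knockouts, Il10 was higher in Gna12 than in Gna11 cells by 3.14 ± 0.466 on the log2 scale, or 8.79-fold (standard error; 95% interval 2.11 to 4.16; limma adjusted p = 0.00979). All 3 Gna12 arrays lay above all 3 Gna11 arrays. Of all genes 2.82% were called in this comparison, a call being an adjusted p under 0.05 over all 18193 genes, and of the 10 cytokine genes 1 was. Between the double knockouts Il10 was lower in Gnaq/Gna11 than in Gna12/Gna13 cells, with a difference of -1.997 ± 0.466, so that its level was 3.99-fold higher in Gna12/Gna13 cells (95% interval -3.02 to -0.97, adjusted p = 0.0310). The 3 Gnaq/Gna11 arrays all lay below the 3 Gna12/Gna13 arrays, and again 1 of the 10 cytokine genes was called, against 6.1% of all genes. The call was lost in either comparison when only its own 6 arrays were fitted (adjusted p = 0.0550 between the single and 0.0502 between the double knockouts). Between the double knockouts it was also lost without Gnaq/Gna11 replicate 2 or 3 or without any 1 of the Gna12/Gna13 arrays (difference -2.11 to -1.69, adjusted p = 0.0720 to 0.109), and with the Y chromosome gene Eif2s3y as a covariate (-1.76, adjusted p = 0.0828). In both of these comparisons genotype cannot be told apart from the number in a position code of the labels, which is 2 for all arrays lacking Gna11 and 4 for all arrays lacking Gna12. The letter of that code is likewise tied to genotype wherever a double is set against a single knockout. What the code stands for is not stated.

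Losing the second gene of a pair gave no call for Il10. It read 1.02 ± 0.466 higher in Gnaq/Gna11 than in Gna11 cells (95% interval -0.00367 to 2.04, adjusted p = 0.311), with no overlap of the 3 arrays each, and 0.51 higher without Gnaq/Gna11 replicate 1 (adjusted p = 0.626). In Gna12/Gna13 minus Gna12 cells the difference was -0.12 ± 0.466 (95% interval -1.14 to 0.90, adjusted p = 1.00), and the arrays overlapped. The first of these differences exceeded the second by 1.14 ± 0.659, which did not pass either (adjusted p = 0.583), so a difference between the pairs was not shown. Over the 4 groups together the moderated F was 21.9 (adjusted p = 0.00628), and of the 10 cytokine genes 1 passed that test, against 6.85% of all genes. In order of level the groups ran Gna12, Gna12/Gna13, Gnaq/Gna11 and Gna11, and the step that passed was that between Gna12/Gna13 and Gnaq/Gna11.

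**Figure D1:**
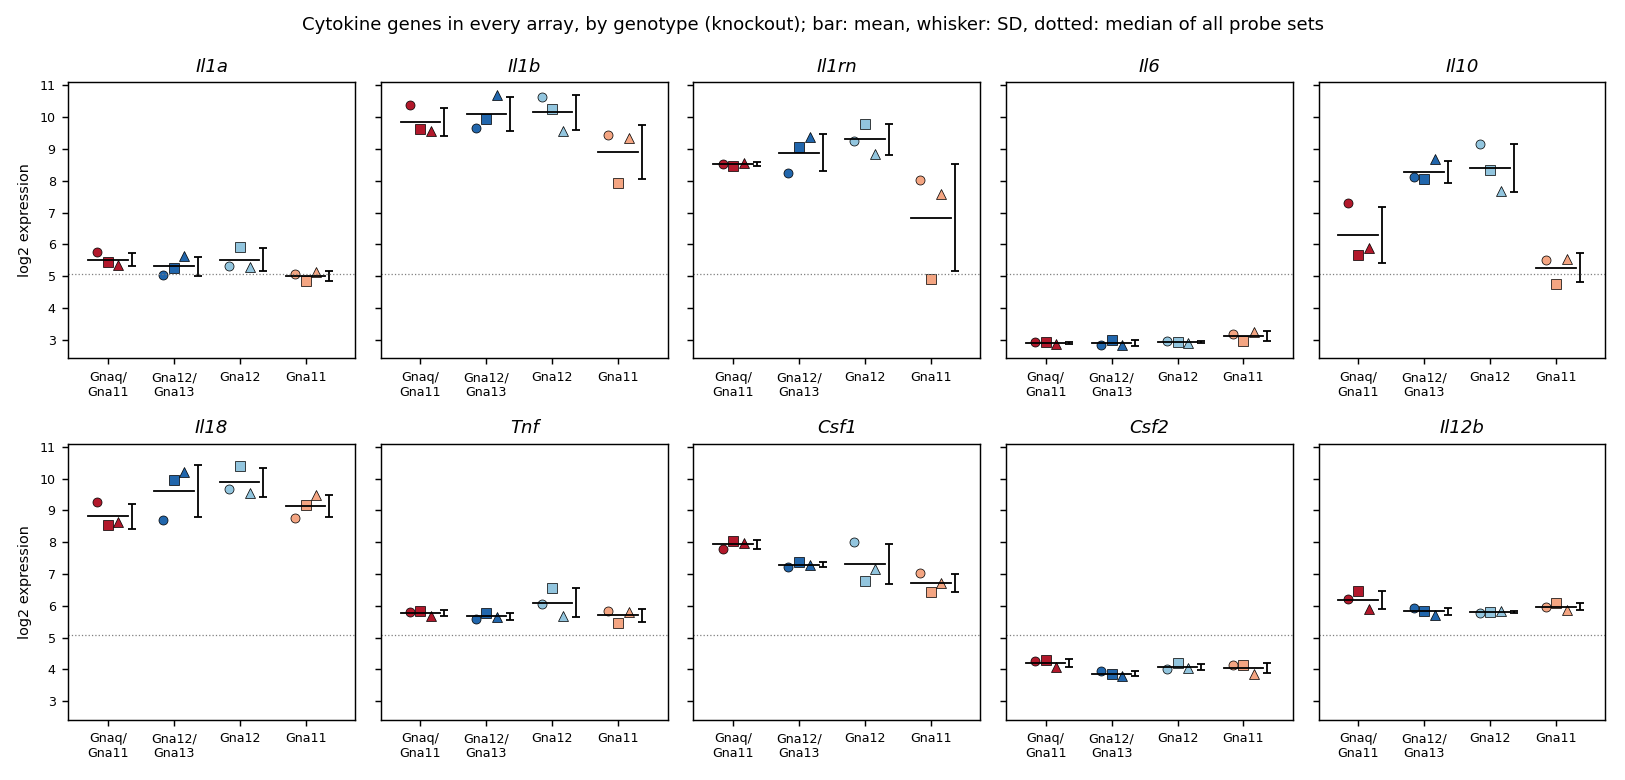
Log2 expression of the 10 cytokine genes in every array (y axis), by knockout genotype (x axis). Markers are replicates 1, 2 and 3, bars are means and whiskers SDs of 3 arrays, and the dotted line is the median of all probe sets, 5.08. Il10 lies between 7.69 and 9.17 in both groups lacking Gna12 and between 4.74 and 7.29 in both groups lacking Gna11.

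Type II cells grown from dissociated lung can carry leukocytes along, and macrophages, dendritic cells and lymphocytes are known makers of interleukin 10. Most pan-leukocyte and macrophage genes were above the median in every genotype: 17 of 20 pan-leukocyte genes and 15 of 20 macrophage genes were above it on all 12 arrays. That median is over all probe sets, while a gene is read by its brightest probe set. Averaged over the arrays, 12099 of all 18193 genes were at or above it. The mean of the pan-leukocyte genes was 8.82 ± 0.0546 in Gnaq/Gna11, 8.99 ± 0.472 in Gna12/Gna13, 9.29 ± 0.385 in Gna12 and 8.07 ± 0.325 in Gna11 cells (SD, n = 3 each). The macrophage mean was 9.03 ± 0.0233 in Gnaq/Gna11, 9.01 ± 0.678 in Gna12/Gna13, 9.05 ± 0.296 in Gna12 and 7.83 ± 0.337 in Gna11 cells. Both means were thus lowest in Gna11 cells, where Il10 was lowest too, and all 20 pan-leukocyte and 18 of 20 macrophage genes had a positive difference in Gna12 minus Gna11 cells. Of these, 8 pan-leukocyte and 2 macrophage genes were called, against 2.82% of all genes. In bulk samples fewer cells of a type and less RNA per cell cannot be told apart.

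With the pan-leukocyte mean added to the fit, the Il10 difference between single knockouts was 1.93 (adjusted p = 0.722). It was 2.45 with the macrophage mean in its place (adjusted p = 0.533), and neither passed. Between the double knockouts the marker means lay close together, at 8.82 in Gnaq/Gna11 and 8.99 in Gna12/Gna13 cells for pan-leukocyte genes and at 9.03 in Gnaq/Gna11 and 9.01 in Gna12/Gna13 cells for macrophage genes. There the Il10 difference was -1.83 with the pan-leukocyte covariate (adjusted p = 0.0374) and -2.01 with the macrophage covariate (adjusted p = 0.0319). The plot of Il10 against these means shows Gnaq/Gna11 replicates 1, 2 and 3 with Il10 at 7.29, 5.67 and 5.88, at macrophage means of 9.06, 9.01 and 9.04. Gna12/Gna13 replicates 1, 2 and 3 had Il10 at 8.10, 8.05 and 8.68, at macrophage means of 8.23, 9.36 and 9.44.

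Some leukocyte genes did follow Il10 between the double knockouts. Siglecf, a surface lectin of alveolar macrophages and eosinophils, averaged 4.38 in Gnaq/Gna11 and 6.11 in Gna12/Gna13 cells and was the 1 macrophage gene called lower there. The macrophage list as a whole went both ways, with a difference above 0 for 10 of 20 genes and a median of 0.016, and C1qc, which encodes a complement chain, averaged 9.40 in Gnaq/Gna11 and 8.37 in Gna12/Gna13 cells without a call. Of 8 neutrophil genes measured, S100a9 and Mpo were called lower, 6 were not called, and 3 had a difference above 0. Of the 8, 2 were above the median on all 12 arrays. The mean of the list was 5.34 to 5.52 on Gnaq/Gna11 arrays and 5.98 to 6.31 on Gna12/Gna13 arrays. S100a9, which encodes an abundant neutrophil and monocyte protein, averaged 6.88 in Gnaq/Gna11, 10.43 in Gna12/Gna13, 11.03 in Gna12 and 7.92 in Gna11 cells, and S100a8 and S100a9 were also called higher in Gna12 than in Gna11 cells. The part of these genes in the Il10 result was not tested. Other lists leaned the other way from Il10. Of 11 T and natural killer cell genes measured 9 had a difference above 0, and 2 were called higher in Gnaq/Gna11 cells: Foxp3, the regulatory T cell factor, averaged 8.08 in Gnaq/Gna11 and 6.51 in Gna12/Gna13 cells, and Il7r averaged 10.29 in Gnaq/Gna11 and 8.77 in Gna12/Gna13 cells. Of 10 dendritic cell genes measured 9 had a difference above 0 and 0 were called by limma, with 3 at an unadjusted p under 0.05. A difference above 0 was found for 56.5% of all genes in this comparison, a limma call for 6.1% and an unadjusted p under 0.05 for 20.9%. Cytip was the 1 pan-leukocyte gene called, and it was higher in Gnaq/Gna11 cells.

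**Figure D2:**
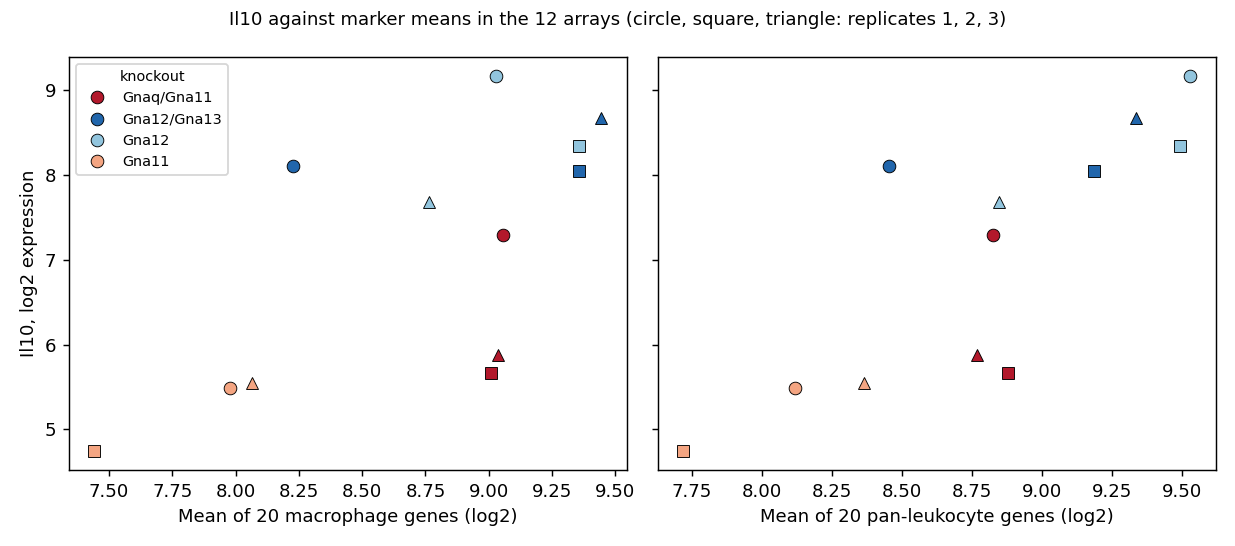
Il10 log2 expression (y axis) against the mean log2 expression of 20 macrophage genes (left x axis) and 20 pan-leukocyte genes (right x axis), 1 point per array, coloured by genotype. Gnaq/Gna11 arrays lie at macrophage means of 9.01 to 9.06, within the range of the arrays lacking Gna12, 8.23 to 9.44, and have lower Il10 than all of those.

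The interleukin 1 genes and their antagonist had their lowest group means in Gna11 cells. For Il1b, the secreted form made by activated macrophages, values were 10.37, 9.62 and 9.55 in Gnaq/Gna11, 9.65, 9.94 and 10.69 in Gna12/Gna13, 10.64, 10.26 and 9.57 in Gna12 and 9.45, 7.92 and 9.34 in Gna11 arrays. All 9 arrays of the other genotypes lay above the 3 Gna11 arrays, and Gna11 replicate 2 stood lowest. The difference was 0.94 ± 0.437 for Gnaq/Gna11 minus Gna11 cells (95% interval -0.02 to 1.90, adjusted p = 0.318) and 1.25 ± 0.437 for Gna12 minus Gna11 cells (95% interval 0.29 to 2.21, adjusted p = 0.138). Neither passed. Il1a, whose product stays mostly bound to or inside the cell, ran from 4.84 to 5.93 over the 12 arrays. Its differences in these comparisons, which share the Gna11 arrays, were 0.51 ± 0.209 each (adjusted p = 0.257 and 0.200).

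The promoters of Il1a and Il1b are shown because both genes read lower in Gna11 arrays than in Gnaq/Gna11 and Gna12 arrays and both carry the same core motif. The sequences are the 250 bases before the start of the gene, from RefSeq on GRCm38.p6, written 5′ to 3′ on the gene's strand. Il1a covers chr2:129309973-129310222 and Il1b chr2:129371140-129371389, both on the minus strand. Capitals mark TATAAA, the letters of a TATA box.
Il1a: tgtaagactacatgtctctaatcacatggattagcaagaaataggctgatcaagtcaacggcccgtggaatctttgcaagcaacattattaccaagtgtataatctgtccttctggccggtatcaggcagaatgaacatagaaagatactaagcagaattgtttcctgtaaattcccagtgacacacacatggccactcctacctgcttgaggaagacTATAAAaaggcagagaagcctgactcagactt
Il1b: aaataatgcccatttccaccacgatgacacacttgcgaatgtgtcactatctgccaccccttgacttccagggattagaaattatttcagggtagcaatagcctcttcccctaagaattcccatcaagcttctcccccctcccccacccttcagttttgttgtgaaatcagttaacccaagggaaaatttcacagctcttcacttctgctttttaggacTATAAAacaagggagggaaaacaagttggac
The motif began 32 bases before the start of Il1a and 31 bases before that of Il1b. A search of both strands found TATAAA in windows of 4 of the 9 cytokine genes matched in the RefSeq table, the others being Tnf, 29 bases before the start, and Il18, 175 bases before it on the opposite strand. The same letters stood in 12.4% of 32851 windows of that length. No window was used for Il10.

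Il1rn, which encodes the interleukin 1 receptor antagonist, was measured by 3 probe sets that did not give the same result. The brightest, 1425663_at, read 8.54, 8.45 and 8.57 in Gnaq/Gna11, 8.23, 9.05 and 9.38 in Gna12/Gna13, 9.26, 9.79 and 8.85 in Gna12 and 8.02, 4.92 and 7.57 in Gna11 arrays. Gna11 replicate 2 lay far below every other array, and the 3 Gna11 arrays were the lowest of the 12. The Gna12 minus Gna11 difference of this probe set was 2.46 ± 0.650 and did not pass (adjusted p = 0.0665). Nor did the Gnaq/Gna11 minus Gna11 difference of 1.68 ± 0.650 (adjusted p = 0.225).

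Probe set 1451798_at, taken from the same transcript record as the brightest one, read 6.48, 6.43 and 6.76 in Gnaq/Gna11, 6.58, 6.82 and 7.21 in Gna12/Gna13, 7.22, 7.50 and 6.94 in Gna12 and 5.57, 5.19 and 5.75 in Gna11 arrays. No Gna11 array reached the lowest of the other 9. In a fit to all 45037 probe sets this probe set was higher in Gna12 than in Gna11 cells by 1.71 ± 0.231, or 3.27-fold (95% interval 1.203 to 2.22, adjusted p = 0.0102). With Il10 it made 2 of the 16 cytokine probe sets called there, against 1.3% of all probe sets. The Gnaq/Gna11 minus Gna11 difference was 1.05 ± 0.231 (adjusted p = 0.0697), and the difference between the pairs was 1.40 ± 0.327 (adjusted p = 0.204). The F test over the 4 groups passed for it too (adjusted p = 0.0122), against 3.59% of all probe sets.

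The third probe set, 1423017_a_at, made from another transcript record, overlapped between genotypes. It averaged 6.15 ± 0.375 in Gnaq/Gna11, 5.91 ± 0.166 in Gna12/Gna13, 6.43 ± 0.471 in Gna12 and 5.76 ± 0.275 in Gna11 cells, and its Gna12 minus Gna11 difference of 0.67 ± 0.268 did not pass (adjusted p = 0.229). With the mean of the 3 probe sets standing for the gene, the Gna12 minus Gna11 difference of Il1rn was 1.61 (adjusted p = 0.0349). The pan-leukocyte and macrophage means were lowest in Gna11 cells beside all interleukin 1 genes. With the macrophage mean as a covariate the Gnaq/Gna11 minus Gna11 difference turned to -0.26 for Il1b (adjusted p = 0.976), -0.29 for Il1rn (adjusted p = 0.980) and -0.06 for Il1a (adjusted p = 0.993). With the pan-leukocyte mean the Gna12 minus Gna11 difference was -0.42 for Il1b (adjusted p = 0.935) and -0.10 for Il1a (adjusted p = 0.985), and that of Il1rn stayed above 0 without a call.

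**Figure D3:**
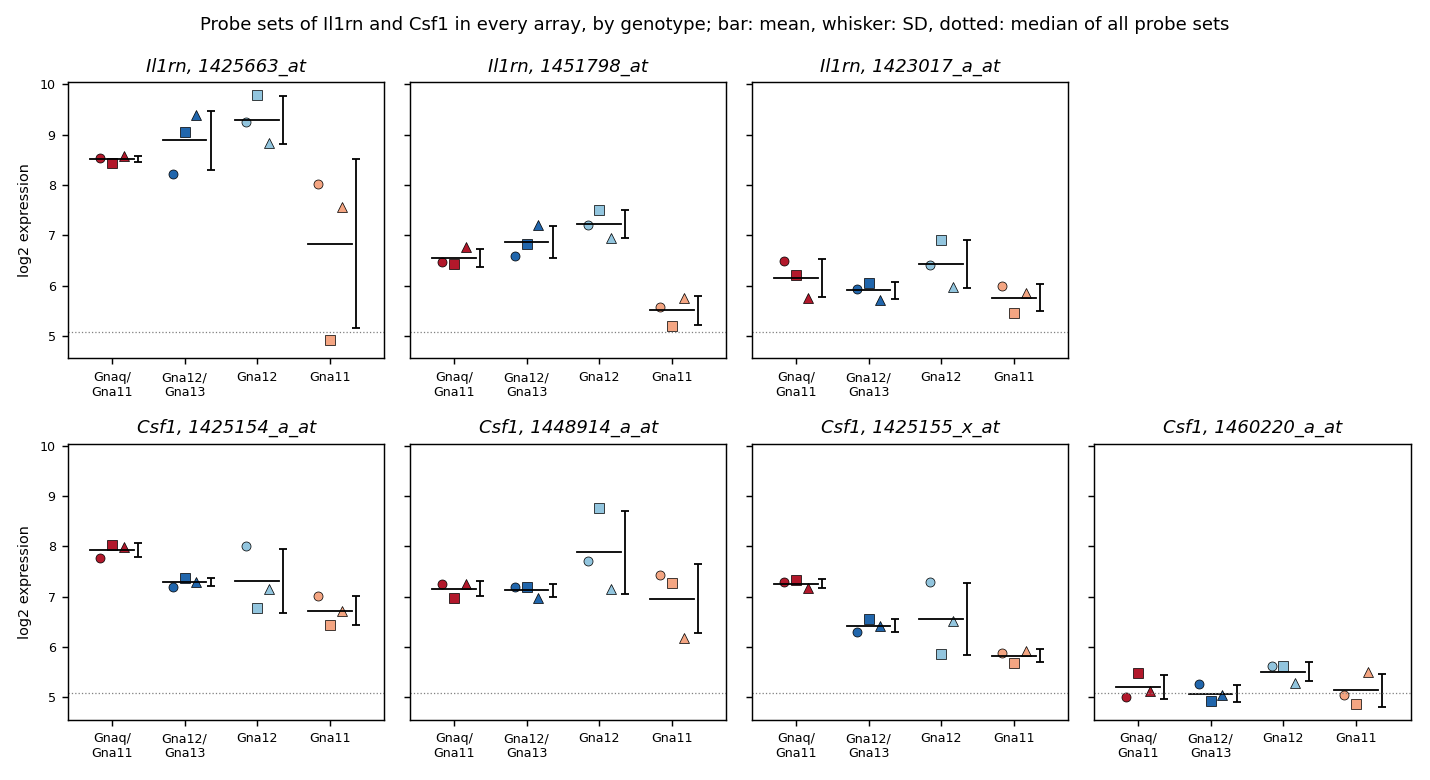
Log2 expression of the 3 probe sets of Il1rn (upper row) and the 4 of Csf1 (lower row) in every array, by knockout genotype. Bars are means and whiskers SDs of 3 arrays. Il1rn 1451798_at and Csf1 1425154_a_at and 1425155_x_at keep the Gna11 arrays below the Gnaq/Gna11 arrays, while Il1rn 1423017_a_at and Csf1 1448914_a_at and 1460220_a_at overlap.

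Csf1, the growth factor that macrophages need to survive, came closest to a call for the loss of Gnaq on top of Gna11. Its brightest probe set, 1425154_a_at, read 7.78, 8.04 and 7.98 in Gnaq/Gna11, 7.20, 7.36 and 7.30 in Gna12/Gna13, 8.01, 6.77 and 7.15 in Gna12 and 7.01, 6.43 and 6.71 in Gna11 arrays. The Gnaq/Gna11 arrays did not overlap with the Gna11 or the Gna12/Gna13 arrays, while the Gna12 arrays spread over most of the range. The Gnaq/Gna11 minus Gna11 difference was 1.21 ± 0.285, or 2.32-fold (95% interval 0.59 to 1.84, adjusted p = 0.0592), and the difference between the pairs was 1.23 ± 0.402 (adjusted p = 0.272). The Gnaq/Gna11 minus Gna11 difference passed under 3 alternatives only. These left out genes below the median level (adjusted p = 0.0448) or Gna12 replicate 1 or 2 (adjusted p = 0.0278 and 0.0485), with the same difference. Over all alternatives it ran from 0.73 to 1.61.

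The second Csf1 probe set of that transcript record, 1425155_x_at, read 7.29, 7.33 and 7.17 in Gnaq/Gna11 and 5.88, 5.68 and 5.92 in Gna11 arrays. The groups did not overlap, and the difference was 1.44 ± 0.290 (adjusted p = 0.0516 over all probe sets). The suffix x marks a probe set whose probes may also match other transcripts. Both Csf1 probe sets of the other transcript record differed by far less, 0.20 ± 0.400 for 1448914_a_at (adjusted p = 0.872) and 0.07 ± 0.199 for 1460220_a_at (adjusted p = 0.917). No source used here states which Csf1 transcripts each probe set reads.

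The Csf1 promoter window, chr3:107760470-107760719 on the minus strand of GRCm38.p6 from RefSeq, is shown because it was 1 of 2 among the cytokine genes that held the NF-kappaB consensus, the binding motif of a factor that acts on many cytokine genes. Capitals mark the match, which lies 154 bases before the start and reads as the consensus on the opposite strand.
Csf1: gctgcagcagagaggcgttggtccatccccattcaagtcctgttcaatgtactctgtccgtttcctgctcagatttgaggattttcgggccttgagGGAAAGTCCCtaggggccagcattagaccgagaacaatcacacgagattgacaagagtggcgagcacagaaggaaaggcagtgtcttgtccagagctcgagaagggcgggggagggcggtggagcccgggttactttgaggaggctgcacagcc
The other window was that of Il6, with the match 44 bases before the start. The consensus stood in 7.25% of the 32851 windows, searched on both strands. A match is a description of these letters and not a site shown to be bound.

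Il18 and Tnf were measured at or above the median on all 12 arrays and gave no call. Il18, which needs caspase 1 to become active and is made by epithelium as well as macrophages, averaged 8.81 ± 0.401 in Gnaq/Gna11, 9.62 ± 0.809 in Gna12/Gna13, 9.88 ± 0.457 in Gna12 and 9.14 ± 0.351 in Gna11 cells. Its Gna12 minus Gna11 difference was 0.74 ± 0.387 (adjusted p = 0.302) and its Gnaq/Gna11 minus Gna12/Gna13 difference -0.80 ± 0.387 (adjusted p = 0.268). Tnf averaged 5.77 ± 0.0917 in Gnaq/Gna11, 5.67 ± 0.109 in Gna12/Gna13, 6.10 ± 0.451 in Gna12 and 5.69 ± 0.207 in Gna11 cells, and Gna12 replicate 2 was its highest array at 6.57. For Gnaq/Gna11 minus Gna11 cells the Tnf difference was 0.07 ± 0.211, with a 95% interval of -0.39 to 0.54.

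Il12b was read differently by its 2 probe sets. The brighter, 1449497_at, averaged 6.19 ± 0.279 in Gnaq/Gna11, 5.82 ± 0.110 in Gna12/Gna13, 5.797 ± 0.0305 in Gna12 and 5.96 ± 0.111 in Gna11 cells, and 1419530_at was below the median on all 12 arrays. The dimmer probe set was 0.66 ± 0.235 higher in Gnaq/Gna11 than in Gna11 cells with no overlap, and did not pass (adjusted p = 0.252). Il6 and Csf2 were below the median of all probe sets on all 12 arrays, Il6 between 2.84 and 3.25 and Csf2 between 3.79 and 4.30. Their differences were small: Il6 read -0.22 ± 0.0794 in Gnaq/Gna11 minus Gna11 cells (adjusted p = 0.191), and Csf2 read 0.34 ± 0.107 in Gnaq/Gna11 minus Gna12/Gna13 cells (adjusted p = 0.0913). At such levels the signal of a probe set may be mostly background, and array values do not show whether either gene was expressed.

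Counted over the 10 genes, the comparisons differed in how many values leaned one way. With Gnaq lost on top of Gna11, 0 of the 10 genes were called by limma, against 1.84% of all genes, and 4 had an unadjusted p under 0.05, against 16.2% of all genes. In 8 of 10 the difference was above 0, against 45.4% of all genes, and 6 of 10 had groups that did not overlap, against 19.7% of all genes. Of these, Il1a, Il1b, Il1rn, Il10 and Csf1 were higher in Gnaq/Gna11 cells, 5 of 10 against 9.87% of all genes, and Il6 was lower, 1 of 10 against 9.83%. Their median difference was 0.37, beside -0.03 over all genes. The macrophage mean was higher in the same arrays, 9.03 in Gnaq/Gna11 and 7.83 in Gna11 cells, and with it as a covariate the differences of Il1a, Il1b, Il1rn and Tnf were below 0. In Gna12 minus Gna11 cells 8 of 10 differences were above 0, against 40.8% of all genes, 6 of 10 had groups that did not overlap, against 26.3%, and the median was 0.55, beside -0.06 over all genes. Both comparisons share the 3 Gna11 arrays.

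In Gna12/Gna13 minus Gna12 cells limma called 0 of the 10 cytokine genes, and 0% of all genes, and 0 of the 10 had an unadjusted p under 0.05, against 4.51% of all genes. Of the 10 differences 1 was above 0, against 49.9% of all genes, and the median was -0.16. Csf2 was the 1 gene whose groups did not overlap, against 11.3% of all genes. In the difference between the pairs 0 of 10 were called, against 0.0715% of all genes, and 4 had an unadjusted p under 0.05, against 10.8%. In Gnaq/Gna11 minus Gna12/Gna13 cells 3 of 10 genes had groups that did not overlap, against 28.4% of all genes. Csf1 and Csf2 were higher, 2 of 10 against 15.5%, and Il10 was lower, 1 of 10 against 12.9%.

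**Figure D4:**
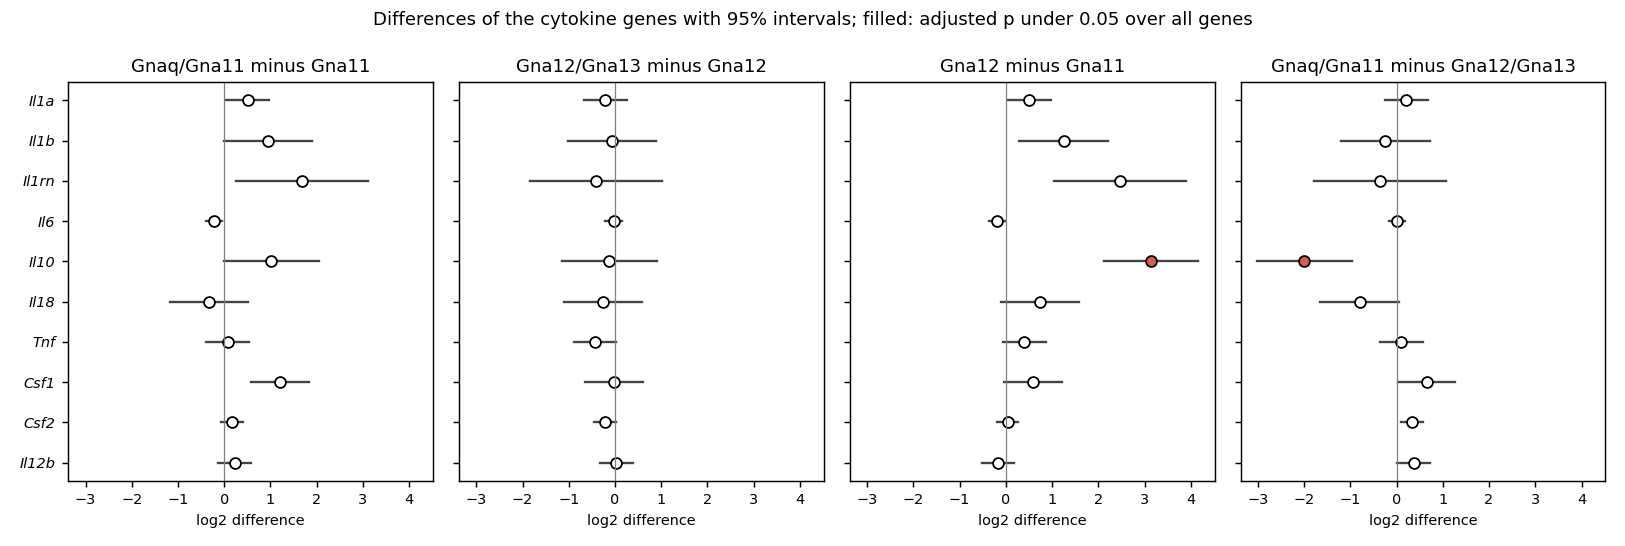
Log2 differences of the 10 cytokine genes in 4 comparisons (x axis) with 95% intervals, 1 row per gene. Filled points have an adjusted p under 0.05 over all genes. Il10 is filled in Gna12 minus Gna11, at 3.14, and in Gnaq/Gna11 minus Gna12/Gna13, at -1.997, and no point is filled in the comparisons of a double with its single knockout.

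Most receptors and binding proteins of these cytokines were not called. Of 17 measured, 3 rose and 14 did not pass in Gna12 minus Gna11 cells, against 2.82% of all genes called. The difference was above 0 for 13 of the 17, against 40.8% of all genes, with a list median of 0.23 beside -0.06 over all genes. Il1r2, a decoy receptor that binds interleukin 1 without signalling, rose by 2.94 ± 0.460 (adjusted p = 0.0120). Csf2ra and Csf2rb, the chains of the Csf2 receptor, rose by 2.06 ± 0.311 (adjusted p = 0.0102) and 1.29 ± 0.296 (adjusted p = 0.0454). In Gnaq/Gna11 minus Gna11 cells Csf2rb alone of the 17 rose, by 1.40 ± 0.296 (adjusted p = 0.0398), against 1.84% of all genes called. Il6ra and Il6st, the receptor chains of interleukin 6, differed by -0.58 ± 0.129 (adjusted p = 0.0263) and -0.51 ± 0.0920 (adjusted p = 0.00993) in Gnaq/Gna11 minus Gna12/Gna13 cells. They were the 2 of 17 called there, against 6.1% of all genes.

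The receptor chains of interleukin 10 were not called in any comparison. Il10ra averaged 7.01 ± 0.130 in Gnaq/Gna11, 6.80 ± 0.202 in Gna12/Gna13, 6.78 ± 0.288 in Gna12 and 6.37 ± 0.600 in Gna11 cells, and Il10rb averaged 6.14 ± 0.235 in Gnaq/Gna11, 6.32 ± 0.134 in Gna12/Gna13, 5.88 ± 0.248 in Gna12 and 5.65 ± 0.0879 in Gna11 cells. Of 13 genes of the interleukin 10 response in macrophages, 3 rose in Gna12 minus Gna11 cells and the other 10 missed the threshold, and the list median was 1.06, against 2.82% of all genes called and a median of -0.06 over all genes. The median of the 20 macrophage genes was 1.45 in the same comparison. The 3 genes that rose were the repressor gene Etv3 at 2.30 ± 0.379 (adjusted p = 0.0142), the NF-kappaB partner gene Bcl3 at 1.71 ± 0.205 (adjusted p = 0.00454) and the arginase gene Arg2 at 1.26 ± 0.249 (adjusted p = 0.0289). In Gnaq/Gna11 minus Gna12/Gna13 cells 2 of the 13 fell, against 6.1% of all genes called. These were Bcl3 with -1.40 ± 0.205 (adjusted p = 0.00393) and Socs3, an inhibitor of cytokine receptor signalling, with -1.36 ± 0.329 (adjusted p = 0.0362). Bcl3 read 7.41, 7.42 and 7.33 in Gnaq/Gna11 and 8.72, 8.998 and 8.64 in Gna12/Gna13 arrays. It read 8.88, 9.16 and 8.42 in Gna12 and 7.06, 7.05 and 7.23 in Gna11 arrays, so all arrays lacking Gna12 lay above all arrays lacking Gna11, as for Il10. The share of all genes with that separation was not counted. In the Gnaq/Gna11 minus Gna11 comparison Arg2 alone of the 13 rose, by 1.32 ± 0.249 (adjusted p = 0.0278), against 1.84% of all genes called.

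Of 11 measured transcription factors listed as regulators of Il10, whether they raise or lower it, 1 rose and 1 fell in Gna12 minus Gna11 cells. That comparison called 2.82% of all genes. Prdm1, which encodes Blimp-1, rose by 0.94 ± 0.153 (adjusted p = 0.0142), and Ets1 fell, with a difference of -2.30 ± 0.482 (adjusted p = 0.0343). Prdm1 also differed by -0.69 ± 0.153 in Gnaq/Gna11 minus Gna12/Gna13 cells (adjusted p = 0.0257). Maf, a factor that drives Il10 in several immune cells, was not called in any comparison and ran from 6.42 to 7.11.

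Of 18 NF-kappaB subunits and feedback targets, 5 rose and 0 fell in Gna12 minus Gna11 cells, with a list median of 0.20, against 2.82% of all genes called and a median of -0.06 over all genes. Besides Bcl3, the inhibitor gene Nfkbie rose by 1.74 ± 0.349 (adjusted p = 0.0299), the ubiquitin-editing gene Tnfaip3 by 1.21 ± 0.233 (adjusted p = 0.0266) and its partner Tnip1 by 0.74 ± 0.0858 (adjusted p = 0.00424), and Rela was the fifth. Of 15 genes of Toll-like receptors and their adaptors 2 rose there, the lipopolysaccharide co-receptor gene Cd14 by 1.71 ± 0.395 (adjusted p = 0.0462) and Tlr2 by 1.64 ± 0.328 (adjusted p = 0.0296). In Gnaq/Gna11 minus Gna12/Gna13 cells Bcl3 and the superoxide dismutase gene Sod2 fell, Sod2 with -0.42 ± 0.0970 (adjusted p = 0.0310), while Nfkb2 rose by 0.69 ± 0.174 (adjusted p = 0.0428). That comparison called 6.1% of all genes. Of these 18 genes limma called 0 in Gnaq/Gna11 minus Gna11 cells, where 6 had an unadjusted p under 0.05, and of the 15 it called 0, where 2 did. Of all genes 1.84% were called in that comparison and 16.2% had an unadjusted p under 0.05.

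None of 10 genes of the inflammasome and of cytokine processing was called in Gna12 minus Gna11 cells by limma, and 5 had an unadjusted p under 0.05. Of all genes 2.82% were called by limma in that comparison and 20.9% had an unadjusted p under 0.05. Casp1, the protease that activates interleukins 1 beta and 18, read 1.47 ± 0.520 higher there (adjusted p = 0.141). Naip5 was the 1 gene of this list that fell in Gnaq/Gna11 minus Gna12/Gna13 cells, where 6.1% of all genes were called. Its group means were 3.32 and 4.35, both below the median of all probe sets. Of 15 related cytokines, Clcf1 rose by 1.75 ± 0.410 (adjusted p = 0.0476) and Il33 fell, with a difference of -1.95 ± 0.458 (adjusted p = 0.0488), in Gna12 minus Gna11 cells. Il33, an alarm cytokine of the interleukin 1 family made by type II cells, was higher in Gnaq/Gna11 than in Gna12/Gna13 cells by 2.84 ± 0.458 (adjusted p = 0.00617), the opposite direction from Il10, and Il12a was higher there by 0.54 ± 0.141 (adjusted p = 0.0455). The Il12a group means were 4.65 in Gnaq/Gna11 and 4.10 in Gna12/Gna13 cells, both below the median of all probe sets. In Gnaq/Gna11 minus Gna11 cells limma called 0 of the processing genes, 0 of the related cytokines and 0 of the Il10 regulators, and 3, 4 and 2 of them had an unadjusted p under 0.05. Of all genes 1.84% were called there and 16.2% had an unadjusted p under 0.05. None of the genes in these 7 lists was called in Gna12/Gna13 minus Gna12 cells or in the difference between the pairs by limma, where 0 to 3 and 0 to 6 genes of a list had an unadjusted p under 0.05. Limma called 0% and 0.0715% of all genes in these comparisons, so few or no calls were to be had. An unadjusted p under 0.05 was found for 4.51% and 10.8% of all genes. Beside the calls in Gna12 minus Gna11 and in Gnaq/Gna11 minus Gna11 cells stand the lower pan-leukocyte and macrophage means of the Gna11 cells. With the pan-leukocyte mean, the macrophage mean or the Gapdh difference as a covariate limma called 0 of all genes in Gna12 minus Gna11 cells, where 1211, 1405 and 1387 had an unadjusted p under 0.05.

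**Figure D5:**
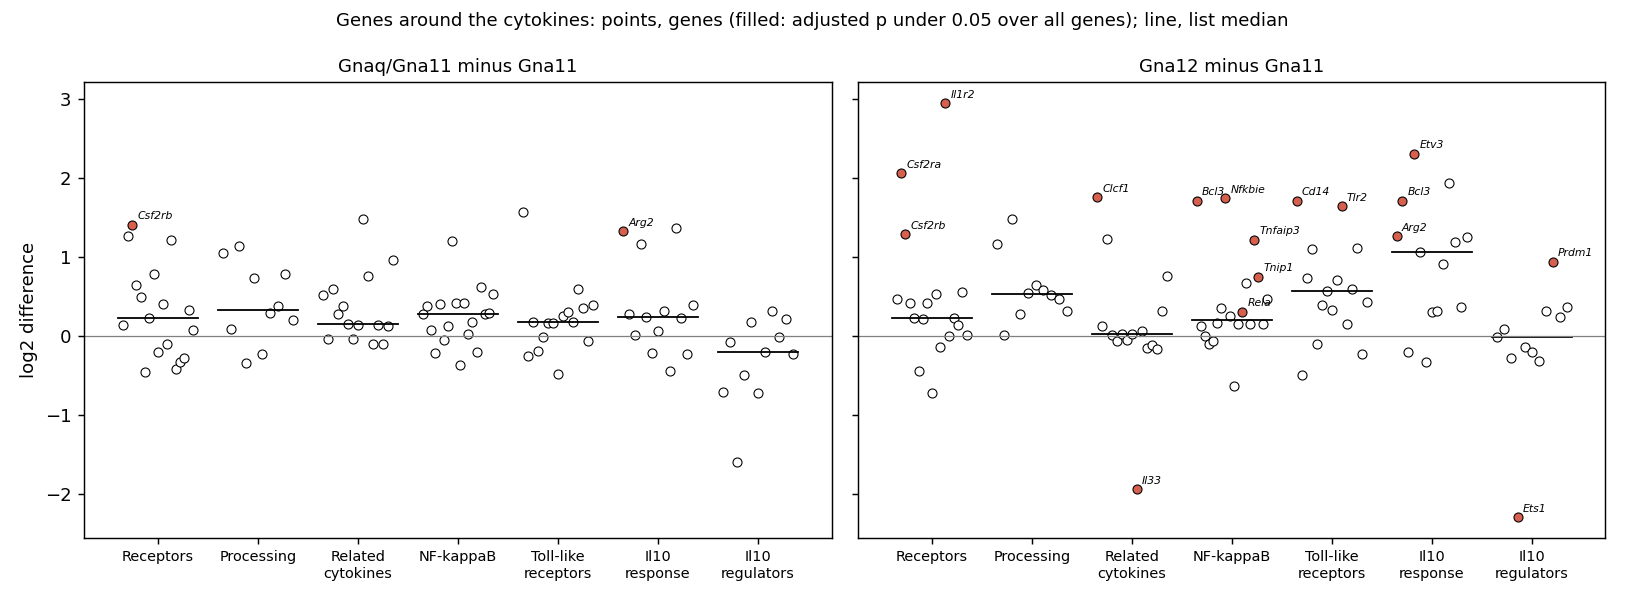
Log2 differences (y axis) of the genes of 7 lists around the cytokines (x axis) in Gnaq/Gna11 minus Gna11 (left) and Gna12 minus Gna11 cells (right). Points are genes, filled where the adjusted p over all genes was under 0.05, and lines are list medians. Csf2rb and Arg2 are filled on the left, and Il1r2, at 2.94, is the highest filled point on the right.

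Among 12040 genes, the 5 whose pattern was most like that of Il10 over the 12 arrays were Pdlim7 (Pearson r 0.950), Lfng (0.940), Trem1 (0.937), Pstpip2 (0.934) and Slc7a11 (0.927). The arrays fall into a set with high and a set with low Il10, so r describes mostly that step, and no p is given. Trem1, a receptor of myeloid cells that amplifies inflammatory signals, averaged 5.96 in Gnaq/Gna11, 7.26 in Gna12/Gna13, 7.70 in Gna12 and 5.17 in Gna11 cells. Pdlim7 averaged 9.93 in Gnaq/Gna11, 10.71 in Gna12/Gna13, 10.92 in Gna12 and 9.63 in Gna11 cells. Among the cytokine genes themselves, Il1b and Il1rn varied most closely together (r 0.911 over the 12 arrays), then Il1b and Il10 (0.811) and Il1rn and Il10 (0.756), and all 3 were lowest in Gna11 replicate 2.

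That array also stood apart in general measures, with the lowest array weight, 0.489, and the lowest pan-leukocyte and macrophage means, 7.72 and 7.44. Without it the Il10 difference between the single knockouts still passed. All 11 type II markers and all 9 general epithelial genes measured were above the median on all arrays, with type II means of 10.27 to 10.93 over the groups. The type II mean moved opposite to Il10 between the single and between the double knockouts. It was 10.70 to 10.90 on Gna11 and 10.10 to 10.50 on Gna12 arrays. In Gna12 minus Gna11 cells 2 of 11 type II genes had a difference above 0, against 40.8% of all genes. Slc34a2 was the 1 called lower, against 2.82% of all genes called. Between the double knockouts the mean was 10.90 to 10.98 on Gnaq/Gna11 and 10.06 to 10.38 on Gna12/Gna13 arrays. There all 11 type II genes measured had a difference above 0 and 5 were called higher, while 3 of 9 epithelial genes were called lower and 4 of 10 fibroblast genes higher. That comparison called 6.1% of all genes. The part of these lists in the Il10 result was not tested. Control probe sets at both ends of Gapdh, whose 3' minus 5' difference is larger in shortened RNA, differed by 3.14 ± 0.124 in Gnaq/Gna11, 3.15 ± 0.174 in Gna12/Gna13, 3.00 ± 0.298 in Gna12 and 3.702 ± 0.294 in Gna11 cells. The same measure for Actb set the groups less apart, at 3.10 ± 0.319 in Gnaq/Gna11, 3.17 ± 0.166 in Gna12/Gna13, 3.00 ± 0.142 in Gna12 and 3.23 ± 0.178 in Gna11 cells. With the Gapdh difference as a covariate the Il10 difference was 2.71 between the single knockouts (adjusted p = 0.511) and -2.002 between the double knockouts (adjusted p = 0.0364). Eif2s3y, a Y chromosome gene, was low in all 3 Gnaq/Gna11 arrays and in replicate 2 of every other group. It averaged 3.43 in Gnaq/Gna11, 5.93 in Gna12/Gna13, 5.86 in Gna12 and 5.89 in Gna11 cells. Replicates 1, 2 and 3 read 7.37, 3.07 and 7.35 in Gna12/Gna13, 6.91, 3.30 and 7.37 in Gna12 and 7.11, 3.56 and 7.00 in Gna11 cells. In comparisons with Gnaq/Gna11 cells, those of Csf1 and the 10 genes included, genotype was thus partly tied to its level. For each deleted gene 1 probe set was lower on every array lacking the gene than on all other arrays, of 2 for Gna11, 5 for Gna12, 7 for Gna13 and 7 for Gnaq. For Gna12 the gap was narrow, with a highest value of 5.91 on arrays lacking it and a lowest of 5.97 on the others. The brightest probe sets of Gna12 and Gna11 averaged higher on arrays lacking the gene, at 6.93 against 6.64 and 7.84 against 7.72. The share of all probe sets with such a separation was not counted.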

How the data were processed

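Total RNA of 12 samples, 10 ng each per the labels, was amplified, biotin-labelled and hybridised to 1 array each. The authors deposited RMA output per probe set, according to the submitters' processing notes, which was read here as log2 values. No source states the log base: 2 was taken because RMA gives log2, and all fold changes depend on it. The sources used here give no software version or genome build. RMA corrects background and normalizes between arrays, so overall shifts between arrays are removed. Values ran from 2.13 to 14.06 and array medians from 5.03 to 5.11, and having 12 arrays limits precision.

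Of 45101 probe sets 64 were controls. Platform annotation named 1 gene for 34945, several for 932 and none for 9160, and 34741 symbols were updated through RefSeq (GRCm38.p6). The probe set with the highest mean stood for a gene, which gave 18193 genes. A mean per group was fitted to all 12 arrays in limma (version 3.58.1, under R 4.3.3), using lmFit and eBayes with a trended prior (residual degrees of freedom 8, prior 3.19), two-sided, with Benjamini-Hochberg adjustment over all genes and a threshold of 0.05. A second fit used every probe set. The script was tested on simulated data. Of 273 genes listed, 253 were measured; Nlrp1b, Nlrc4, Il27, Il36a, Il36b, Il36g, Il19, Nfkb1, Ticam2, Irak4 and Atf1 were among those not used here. From each list up to 4 called genes with the largest differences are named per comparison; Rela, the Il10 receptor chains, Maf, Casp1 and the single marker genes were named outside that rule, after their values were seen. The 10 genes and the lists were chosen with earlier results of these data known. Alternatives were other probe set rules, a filter on low values, centring, quantile normalization, other variance priors, array weights, fits to the groups compared, a replicate block, 4 covariates and leaving out each array.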

Additional observations from a re-analysis of the deposited data

How the results depend on the processing

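The Il10 difference between Gna12 and Gna11 cells passed under 22 of 26 alternatives (1.93 to 3.49 on the log2 scale, limma adjusted p from 0.00713 to 0.722). It did not pass with only the groups compared (3.14, adjusted p = 0.0550) or with the pan-leukocyte (1.93), macrophage (2.45) or Gapdh (2.71) covariate. It passed without each array in turn (2.75 to 3.49). The Gnaq/Gna11 minus Gna12/Gna13 difference of Il10 passed under 19 of 26 (-2.50 to -1.69, adjusted p from 0.0103 to 0.109). It did not pass with only the groups compared (-1.997) or with Eif2s3y as a covariate (-1.76). Leaving out single arrays gave -2.50 to -1.69. It failed without Gnaq/Gna11 replicate 2 (-1.69, adjusted p = 0.109) or 3 (-1.80, adjusted p = 0.106) and without Gna12/Gna13 replicate 1 (-2.08, adjusted p = 0.0720), 2 (-2.11, adjusted p = 0.0824) or 3 (-1.80, adjusted p = 0.0861). The F of Il10 passed under 22 of 25 alternatives and was 7.18, 11.0 and 10.1 with the pan-leukocyte, macrophage and Gapdh covariate (adjusted p = 0.124, 0.0510 and 0.0601); leaving out single arrays gave 17.0 to 37.0. The Gna12/Gna13 minus Gna12 difference of Il10, which passed under no alternative (adjusted p from 0.890 to 1.00), was 0.17 with the pan-leukocyte covariate and ran from -0.48 to 0.27 when single arrays were left out, the highest without Gna12 replicate 1. For Gnaq/Gna11 minus Gna11 (0.51 to 1.33) and the difference between the pairs (0.63 to 1.49) Il10 passed in no fit that left out an array, and the lowest values over all alternatives were 0.27 and 0.10 with the pan-leukocyte covariate. Counts of called genes moved more. Gnaq/Gna11 minus Gna11 cells gave 335, and 174 with array weights, 139 with only the groups compared and 26, 0 and 3 with the pan-leukocyte, macrophage and Gapdh covariate. Gna12 minus Gna11 cells gave 513, 22 with only the groups compared and 0 with each of these 3 covariates. The difference between the pairs gave 13, and 35 with the mean of probe sets, 36 with genes at or above the median, 22 without the trend, 28 with array weights and 1, 0 and 0 with those covariates. The F test gave 1246, and 395, 542 and 534 with them. Leaving out single arrays gave 102 to 381 for Gnaq/Gna11 minus Gna11, 0 to 3 for Gna12/Gna13 minus Gna12, 0 to 40 for the difference between the pairs, 62 to 736 for Gna12 minus Gna11, 369 to 1259 for Gnaq/Gna11 minus Gna12/Gna13 and 617 to 1308 for the F test. Of 1374 values of the other 9 genes under alternatives 6 passed, of Il1rn and Csf1, against 0 of 54 tests as reported. Another 56 changed sign with neither value passing. By array, the lowest counts came without Gnaq/Gna11 replicate 2, Gna12 replicate 2 (difference between the pairs and Gna12 minus Gna11), Gna12/Gna13 replicate 2 and, for the F test, Gnaq/Gna11 replicate 3. The causes were not tested. Replicate numbers were not taken to pair the samples, since not every same-numbered pair of arrays had deviations that correlated above 0.1. The correlations were 0.00943 to 0.0597 between Gnaq/Gna11 and Gna11, -0.0137 to 0.271 between Gna12/Gna13 and Gna12, 0.0182 to 0.198 between Gna12 and Gna11 and 0.00417 to 0.0362 between Gnaq/Gna11 and Gna12/Gna13 cells, and 9 of 12 arrays correlated best with their own number in the paired group, a hint of pairing from the data and not from the design. With the number as a block Il10 kept its calls (adjusted p = 0.0117 for Gna12 minus Gna11, 0.0242 for Gnaq/Gna11 minus Gna12/Gna13), and 309 and 445 genes were called in Gnaq/Gna11 minus Gna11 and Gna12 minus Gna11 cells. Il6, Csf2 and 1 Il12b probe set lay below the median signal on all arrays, which limits what can be read from them.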
